A study of Mus musculus with 9 samples.

Results

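Glucose is broken down in the cytosol by glycolysis, and its carbon then leaves as lactate, enters the mitochondrion as pyruvate or is diverted at glucose 6-phosphate into the pentose phosphate pathway. The genes described here are 36 enzymes and carriers of these routes, taken as a list of symbols and matched to the table of expression values by name. Of these, 34 were listed, in a table of 16070 genes. Pfkp, the platelet form of phosphofructokinase, and Slc16a3, a lactate exporter, were not among the listed symbols and are not analysed here. The test was limited to genes with at least 1 FPKM (read density: fragments divided by the transcript's length and the library's mapped total) in at least 3 libraries, which 32 of the 34 passed, and Aldoc and Pdk1 did not.

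The study made RNA libraries of mouse embryos at E4.5, the late blastocyst, to ask what follows when arginine 17 of histone H3 or the enzyme that methylates it, Carm1, is altered by CRISPR-Cas9 editing. It has 3 libraries labelled WT (wild type), 3 labelled H3R17H (a substitution at that arginine) and 3 labelled Carm1-/-. All were of the C57BL/6 strain, grown in culture and collected 4.5 days after microinjection. The labels describe cDNA reverse transcribed from a single cell out of such embryos in one place and whole embryos in another, and they do not say that the replicates came from separate embryos. The p-values therefore measure the spread between these libraries only. Less RNA per cell and fewer cells of a type cannot be told apart in these values.

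The targeted gene went against the titles. Its WT levels were 8.86, 7.08 and 6.65 FPKM. Under the H3R17H label Carm1 read 1.88, 0.02 and 1.22 FPKM, and under the Carm1-/- label 6.44, 12.7 and 9.52. It was thus low in all 3 libraries labelled H3R17H and near the WT level in all 3 labelled Carm1-/-, where the submitters' descriptions carry the opposite names ("Carm" for the libraries titled H3R17H and "Hist" for those titled Carm1-/-). The groups are called by their titles below, and every direction holds for the library labelled so. Replicate 1 labelled Carm1-/- stood with the WT libraries in many members. Members and genes of the further lists that were called for Carm1-/- against WT only without it are given with that value.

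Blastocyst markers were present in every library. All 15 trophectoderm markers were listed, and their summed level was 5754.2 to 8783.2 FPKM in WT, 1678.7 to 4695.8 in the libraries labelled H3R17H, and 9309.1, 2106.1 and 2644.1 in replicates 1, 2 and 3 labelled Carm1-/-. No defining marker of the trophectoderm, epiblast or primitive endoderm lists was at 0 throughout a group, though Foxa2 was not listed. Epiblast markers (12 of 12 listed) summed to 4538.6 to 6372.2 FPKM in WT, 4200.7 to 4481.4 under the H3R17H label and 4795.1 to 6664.1 under the Carm1-/- label. Primitive endoderm markers (11 of 12 listed) summed to 212.8 to 275.4, 154.2 to 190.1 and 115.9 to 289.4 FPKM. Few genes made most of the epiblast and trophectoderm sums. In WT Dppa5a alone read 4144.5 to 6119.1 FPKM, Krt8 2229.1 to 2755.9 and Krt18 2611.5 to 4636.5. For H3R17H against WT 11 of 14 tested trophectoderm markers were lower in value and 3 higher. Of the 12 epiblast markers 8 were lower and 4 higher, beside 52.3% and 47.7% of all tested genes. Of 9 oocyte and granulosa markers 3 were listed, summing to at most 1.32 FPKM in WT and under the H3R17H label and to 2.27, 22.1 and 7.03 under the Carm1-/- label. Transcripts of 4 Y-linked genes summed to 30.7 to 35.7 FPKM in WT, to 36.6 and 28.1 in replicate 1 of the edited groups, and to at most 0.01 in the other 4 edited libraries. All WT libraries held Y-linked transcripts, so sex and label cannot be told apart for the 4 edited libraries without them. The part of these differences in the results below was not tested beyond the values given.

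The preimplantation embryo takes up pyruvate and lactate first and turns to glucose as it forms a blastocyst, a switch carried by the glucose transporters Slc2a1 and Slc2a3 and by hexokinase. Glycolysis then runs from hexokinase through aldolase, which splits the sugar, to a lower part with Gapdh, Pgk1, enolase and pyruvate kinase. In that part Pgk1 and pyruvate kinase form ATP. Lactate dehydrogenase converts pyruvate and lactate into each other, the pyruvate dehydrogenase complex commits pyruvate to acetyl-CoA and is switched off by the Pdk kinases, and the pentose phosphate pathway makes NADPH and ribose 5-phosphate.

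In WT the levels of these genes, which FPKM gives per transcript length, spanned from Gapdh at 448.4 ± 115.6 FPKM (mean ± SD, n = 3) to Aldoc at 0.39 FPKM. Gapdh was higher than 98.7% of all listed genes. Pdhb followed at 403.2 FPKM, Aldoa at 377.0, Eno1 at 286.0, Taldo1 at 266.6 and Pkm at 220.8. Neighbours in this order were not separated, since the WT libraries of Gapdh, Pdhb and Aldoa overlapped. In 7 pairs of paralogs among the members 1 gene held most of the RNA in WT: Slc2a3 over Slc2a1, Hk2 over Hk1, Pfkl over Pfkm, Aldoa over Aldoc, Eno1 over Eno3, Ldha over Ldhb and Tkt over Tktl1. Among the kinases Pdk2 (1.87 FPKM), Pdk3 (1.82) and Pdk1 (0.43) none did. Pgam2, the muscle mutase and no member, stood at 26.1, 44.5 and 52.4 FPKM in WT, overlapping Pgam1 at 61.4, 46.1 and 46.0. Gapdh has 169 pseudogene transcripts of at least 90% identity over at least 300 bases, of which 24 were listed in the table, and Ldha 13, Pkm 8, Aldoa 5, Eno1 5, Pgk1 4, Pgam1 3 and Tpi1 2. Gpi1, Ldhb, Pdha1, Pdhb and Taldo1 have 1 each. How the authors' counting divided such reads is not given in the sources used here, so the levels of these 13 genes are uncertain.

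**Figure D1:**
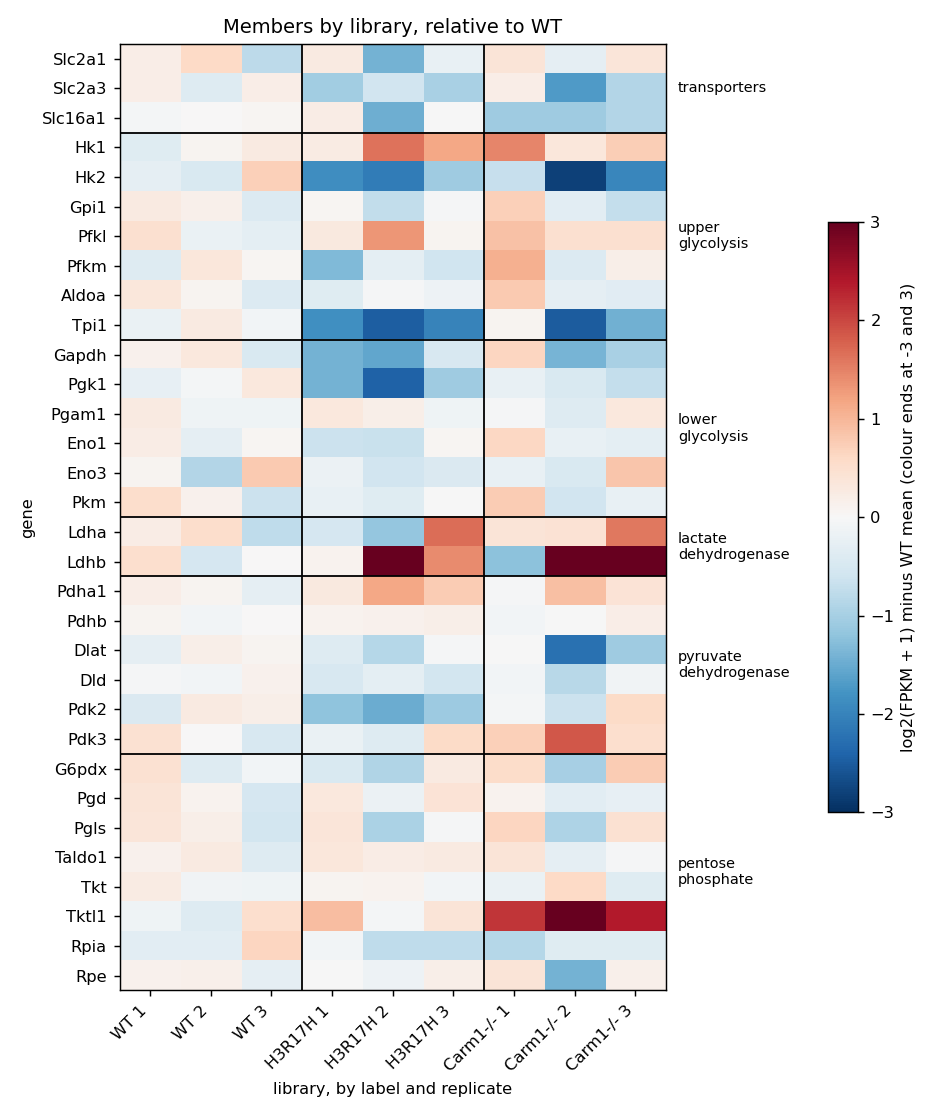
Difference of each listed gene from its WT mean on the log2(FPKM + 1) scale (color), with genes in rows grouped by role and the 9 libraries in columns grouped by label. Tpi1, Hk2 and Pgk1 are low in all 3 libraries labelled H3R17H, and Tktl1 is high in all 3 labelled Carm1-/-.

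Differences are given on the log2(FPKM + 1) scale, which understates those of low genes, from a limma fit over all 9 libraries with adjustment over all 11850 genes. No member had an adjusted p under 0.05 in any of the 4 comparisons, nor did any other gene (0% of the 11850 in each direction). The counts at an unadjusted p under 0.05 were 2 members higher and 5 lower for H3R17H against WT, beside 6.41% and 7.75% of all tested genes. They were 2 higher and 4 lower for Carm1-/- against WT, beside 5.25% and 6.19%, and 5 higher and 0 lower for Carm1-/- against H3R17H, beside 4.09% and 4.12%. For both edited groups together against WT they were 3 higher and 4 lower, beside 6.64% and 7.68%. The comparisons with WT share the WT libraries. Without replicate 1 labelled Carm1-/- the same fit called 1 member for H3R17H against WT, 6 for Carm1-/- against WT, 0 for Carm1-/- against H3R17H and 5 for both edited groups against WT. That library was singled out from these same values. Without it no library labelled Carm1-/- held Y-linked transcripts while all WT libraries did, so sex and that label cannot be told apart there. In that fit 0.574% of all tested genes were called higher and 0.481% lower for H3R17H against WT, 2.5% and 2.14% for Carm1-/- against WT, 0.0253% and 0.0591% for Carm1-/- against H3R17H, and 2.78% and 2.48% for both edited groups against WT.

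Between the libraries labelled H3R17H and WT, 7 of the 32 members had no overlap between the groups and were lower, and 2 were higher, beside 15.6% and 13.3% of all tested genes. By value 20 members were lower and 12 higher, beside 52.3% and 47.7% of all tested genes, and the median member differed by -0.22, beside -0.03. In Carm1-/- against WT 3 members were lower without overlap and 3 higher, beside 9.71% and 6.91%. By value 15 were lower and 17 higher, beside 53.7% and 46.3%, with a median of 0.02. In Carm1-/- against H3R17H 0 were lower and 3 higher, beside 6.07% and 5.13%. By value 11 were lower and 21 higher, beside 51% and 49%, with a median of 0.13. Over both edited groups Hk2 alone was lower without overlap and 0 members were higher, beside 4.34% and 2.6%. By value 20 were lower and 12 higher, beside 53.6% and 46.4%, with a median of -0.13. None of these medians kept its sign with every library left out in turn: the first was 0.01 without replicate 2 labelled H3R17H, the second ranged from -0.19 to 0.18, the third was -0.03 without replicate 1 labelled Carm1-/- and the last 0.03 without WT replicate 1.

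Among the carriers, the glucose transporter Slc2a3 was lower in the libraries labelled H3R17H. Slc2a3 stood at 179.8, 118.6 and 179.9 FPKM in WT, 75.9, 104.8 and 79.9 under the H3R17H label, and 179.8, 47.8 and 84.9 under the Carm1-/- label. All 3 libraries labelled H3R17H lay below all 3 WT libraries, while replicate 1 labelled Carm1-/- equalled the upper WT values. The difference of H3R17H from WT was -0.86 (SE 0.41, limma adjusted p = 0.369). That of Carm1-/- from WT was -0.79 (SE 0.41, adjusted p = 0.48), and -1.28 (SE 0.3, adjusted p = 0.0456) without its replicate 1. With a term for Y-linked transcripts in the fit, called the sex term below, the Slc2a3 differences were -0.45 and -0.38. Among only the libraries with such transcripts, which leave replicate 1 of each edited group and take that lone library to vary like the other groups, they were -1.03 and 0.2 (adjusted p = 0.802). Slc2a1, the other glucose transporter, ranged from 11.7 to 50.0 FPKM with overlap among all groups. Slc16a1, which carries pyruvate and lactate, stood at 17.4, 18.1 and 18.7 FPKM in WT, 21.4, 5.85 and 17.8 under the H3R17H label, and 8.08, 8.14 and 9.36 under the Carm1-/- label. Here all 3 libraries labelled Carm1-/-, replicate 1 among them, were below WT, by -1.0 (SE 0.4, limma adjusted p = 0.395).

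Of the upper glycolytic enzymes, Tpi1 and Hk2 stood lowest against WT. Hk2, the hexokinase that traps glucose as glucose 6-phosphate, stood at 52.6, 45.5 and 105.1 FPKM in WT, 16.6, 14.0 and 29.5 under the H3R17H label, and 38.6, 8.25 and 15.4 under the Carm1-/- label. All 6 edited libraries were below every WT library. Over both edited groups Hk2 differed from WT by -1.75 (SE 0.45, limma adjusted p = 0.205), by -1.68 (SE 0.52, adjusted p = 0.245) for H3R17H and by -1.82 (SE 0.52, adjusted p = 0.266) for Carm1-/-. Without replicate 1 labelled Carm1-/- the values were -2.03 (adjusted p = 0.018) over both groups and -2.38 (SE 0.44, adjusted p = 0.0219) for Carm1-/-. With the sex term Hk2 differed by -1.21 (adjusted p = 0.707) for H3R17H and -1.35 (adjusted p = 0.942) for Carm1-/-, and among libraries with Y-linked transcripts by -1.87 (adjusted p = 0.192) and -0.7 (adjusted p = 0.61).

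Hk1, the hexokinase found in most adult tissues, went the other way from a low level. It stood at 0.83, 1.5 and 1.82 FPKM in WT, 1.8, 6.2 and 4.2 under the H3R17H label, and 5.5, 1.99 and 2.89 under the Carm1-/- label. The 3 libraries labelled Carm1-/- lay above WT, and replicate 1 labelled H3R17H was just inside the WT range. Hk1 differed from WT by 1.01 (SE 0.44, limma adjusted p = 0.345) for H3R17H. Over both edited groups it differed by 0.93 (SE 0.38, adjusted p = 0.312). Among libraries with Y-linked transcripts these differences were 0.25 and 0.86. As a share of summed Hk1 and Hk2, Hk1 made up 1.55%, 3.2% and 1.7% in WT, 9.79%, 30.7% and 12.5% under the H3R17H label, and 12.5%, 19.4% and 15.8% under the Carm1-/- label. No edited library, replicate 1 labelled Carm1-/- included, overlapped the WT range. The mean share was 16.8% ± 7.59 (SD, n = 6) in the edited libraries and 2.15% ± 0.91 (SD, n = 3) in WT, a two-sided exact permutation p of 0.0238, which is the smallest 6 against 3 libraries can give. Adjusted over the 7 paralog shares compared, an analysis chosen after the values were seen, this p was 0.167.

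**Figure D2:**
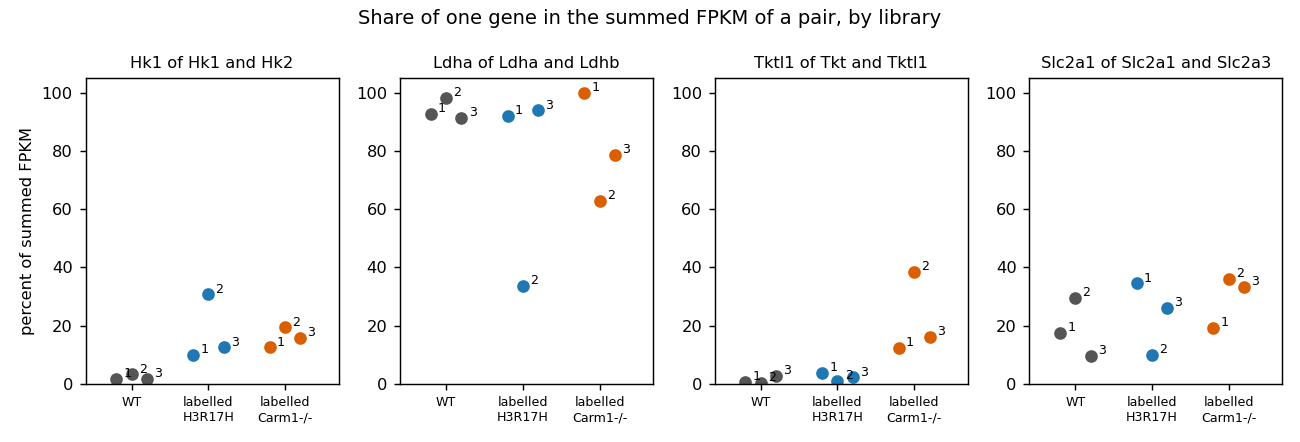
Share of one paralog in the summed FPKM of a pair (percent, vertical axis) in each of the 9 libraries, grouped by label, with a numbered point per replicate. The Hk1 share lies between 1.55% and 3.2% in WT and between 9.79% and 30.7% in the edited libraries, while the Slc2a1 share overlaps among the groups.

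Tpi1, which interconverts the 2 triose phosphates, stood at 121.5, 166.9 and 132.0 FPKM in WT, 37.8, 24.4 and 33.7 under the H3R17H label, and 145.9, 23.7 and 50.3 under the Carm1-/- label. Every library labelled H3R17H and 2 of the 3 labelled Carm1-/- lay below WT, and replicate 1 labelled Carm1-/- was within the WT range. The difference of H3R17H from WT was -2.11 (SE 0.51, limma adjusted p = 0.212). With only the WT and H3R17H libraries in the fit it was -2.11 (SE 0.23, adjusted p = 0.0137), where 0.945% of all tested genes were called higher and 1.08% lower. For Carm1-/- it was -1.29 (SE 0.51, adjusted p = 0.392), and -1.97 (SE 0.33, adjusted p = 0.0174) without replicate 1. Among libraries with Y-linked transcripts the Tpi1 difference was -1.85 (adjusted p = 0.0842) for H3R17H and 0.07 (adjusted p = 0.915) for Carm1-/-. With the sex term it was -1.3 (adjusted p = 0.688) and -0.48 (adjusted p = 0.993).

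The remaining upper enzymes overlapped among the groups. Aldoa, the main aldolase, stood at 466.4, 387.3 and 277.3 FPKM in WT, 288.5, 361.0 and 329.3 under the H3R17H label, and 632.3, 303.8 and 291.4 under the Carm1-/- label. Its highest value was in replicate 1 labelled Carm1-/-. Pfkl, the liver form of phosphofructokinase, stood at 14.3, 8.61 and 7.93 FPKM in WT, 12.4, 26.4 and 10.6 under the H3R17H label, and 19.1, 14.4 and 14.2 under the Carm1-/- label, a difference of 0.56 (SE 0.37, limma adjusted p = 0.509) for H3R17H and 0.61 (SE 0.37, adjusted p = 0.529) for Carm1-/-. Gpi1, which turns glucose 6-phosphate into fructose 6-phosphate, ranged from 34.0 to 96.0 FPKM. Pfkm, the muscle phosphofructokinase, ranged from 0.03 to 4.42 FPKM, and Aldoc, the brain aldolase, from a listed 0 to 2.15 FPKM. Summed over the 8 listed upper enzymes, the level was 569.0 to 726.5 FPKM in WT, 418.0 to 467.0 under the H3R17H label, and 944.0, 399.8 and 411.5 under the Carm1-/- label. The trophectoderm markers were likewise highest in replicate 1 of that group, at 9309.1 FPKM against 2106.1 and 2644.1, and their part in these sums was not tested.

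**Figure D3:**
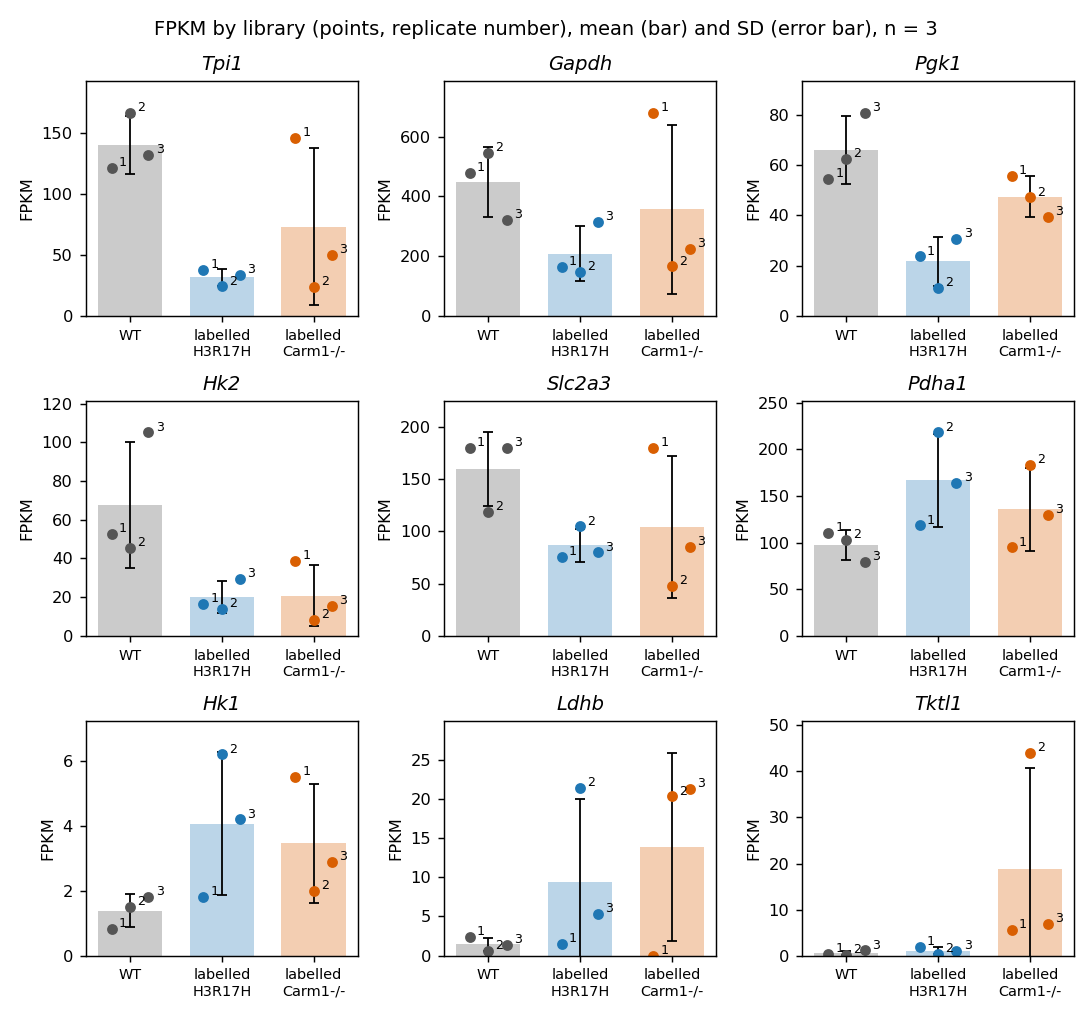
FPKM (vertical axis, linear, from 0) of selected glycolysis, pyruvate and pentose phosphate genes in each library, with numbered points for libraries, bars at group means, error bars of 1 SD and groups along the horizontal axis by label. Hk2 is at or below 38.6 FPKM in all 6 edited libraries and at or above 45.5 in WT, and replicate 1 labelled Carm1-/- is within the WT range for Tpi1 and above it for Gapdh.

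In the lower part of glycolysis, Pgk1, the kinase that makes the first ATP, was lower in the libraries labelled H3R17H than in both other groups. Pgk1 stood at 54.5, 62.4 and 80.8 FPKM in WT, 23.7, 11.3 and 30.5 under the H3R17H label, and 55.6, 47.1 and 39.3 under the Carm1-/- label. The H3R17H label held the 3 lowest libraries, and WT and Carm1-/- overlapped. Pgk1 differed by -1.64 (SE 0.34, limma adjusted p = 0.175) between H3R17H and WT, the smallest adjusted p of any member in that comparison, and by 1.17 (SE 0.34, adjusted p = 0.436) between Carm1-/- and H3R17H. With array quality weights, which lower the weight of libraries that vary more, the difference between H3R17H and WT was -1.47 (adjusted p = 0.0356) for Pgk1 and -2.12 (adjusted p = 0.0279) for Tpi1, where 0.743% of all tested genes were called higher and 0.878% lower. With these weights 4 members were called for both edited groups against WT, namely Hk2, Tpi1, Pgk1 and Tktl1, beside 1.93% of all tested genes higher and 1.99% lower. For Carm1-/- against WT they called 0 members, beside 0.00844% higher and 0% lower.

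Gapdh, which oxidizes glyceraldehyde 3-phosphate, stood at 479.4, 545.3 and 320.4 FPKM in WT, 164.1, 146.7 and 314.3 under the H3R17H label, and 680.0, 166.0 and 224.2 under the Carm1-/- label. The libraries labelled H3R17H were all below WT, though replicate 3 came close to the lowest WT library, and replicate 1 labelled Carm1-/- held the highest value of all. The difference from WT was -1.15 (SE 0.48, limma adjusted p = 0.332) for H3R17H and -0.57 (SE 0.48, adjusted p = 0.657) for Carm1-/-. Without replicate 1 labelled Carm1-/- the latter was -1.18 (SE 0.34, adjusted p = 0.0796), and Gapdh passed for both edited groups together at -1.16 (adjusted p = 0.0438), against -0.86 (adjusted p = 0.369) with it. Among libraries with Y-linked transcripts Gapdh differed by -1.41 for H3R17H and 0.63 for Carm1-/-, and with the sex term by -0.68 and -0.1.

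Eno1, the main enolase, stood at 328.7, 235.4 and 294.0 FPKM in WT, 179.7, 176.8 and 293.2 under the H3R17H label, and 437.4, 244.6 and 232.7 under the Carm1-/- label. The groups overlapped, with a difference of -0.43 (SE 0.29, limma adjusted p = 0.527) for H3R17H against WT. Pkm, the pyruvate kinase, ranged from 132.3 to 354.0 FPKM with its highest value again in replicate 1 labelled Carm1-/-. Pgam1, the mutase between Pgk1 and enolase, ranged from 38.4 to 63.6 FPKM. Eno3, the muscle enolase, ranged from 1.09 to 5.89 FPKM. Summed over these 6 genes the level was 879.3 to 1227.4 FPKM in WT, 556.2 to 892.0 under the H3R17H label, and 1578.8, 637.3 and 744.6 under the Carm1-/- label.

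**Figure D4:**
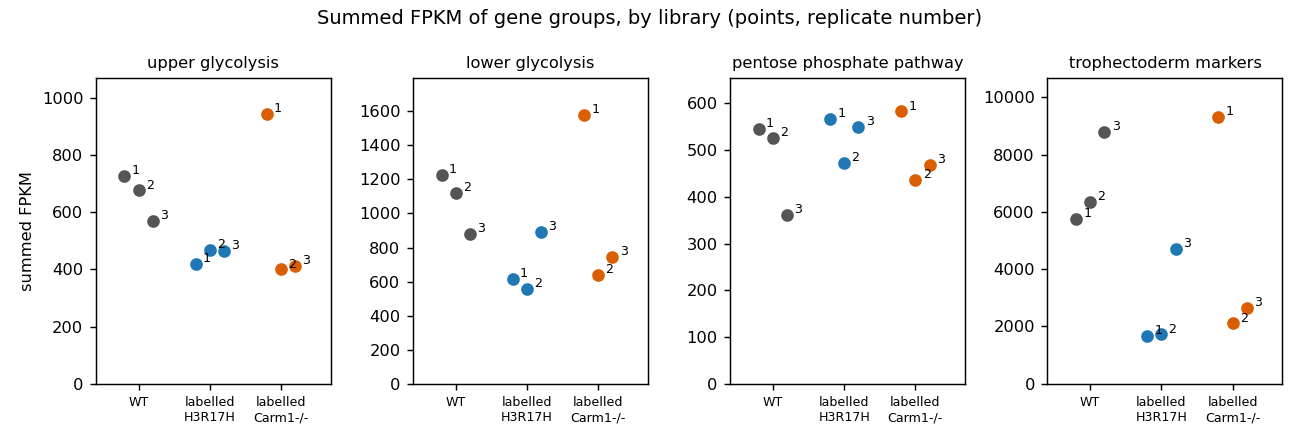
Summed FPKM of the genes of a role (vertical axes, linear, from 0) in each of the 9 libraries, grouped by label. The upper glycolysis sum is 569.0 to 726.5 FPKM in WT and 418.0 to 467.0 under the H3R17H label, and replicate 1 labelled Carm1-/- is the highest library for both glycolysis sums.

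The lactate dehydrogenases differed among libraries within a label. Ldha, the subunit typical of glycolytic tissue, stood at 29.7, 37.2 and 14.7 FPKM in WT, 17.6, 10.9 and 83.2 under the H3R17H label, and 33.5, 34.7 and 78.5 under the Carm1-/- label. The 2 high values were replicate 3 of each edited group, and the groups overlapped. Ldhb, the subunit typical of heart, stood at 2.35, 0.66 and 1.36 FPKM in WT, 1.54, 21.4 and 5.32 under the H3R17H label, and at a listed 0, 20.3 and 21.3 under the Carm1-/- label. The 4 edited libraries without Y-linked transcripts were those above the WT range. Ldhb differed from WT by 1.59 (SE 1.12, limma adjusted p = 0.538) for H3R17H and by 1.73 (SE 1.12, adjusted p = 0.557) for Carm1-/-, or 3.21 (SE 0.74, adjusted p = 0.0437) without replicate 1. With the sex term the Ldhb differences were -0.63 and -0.5, and among libraries with Y-linked transcripts 0.1 and -1.24. Replicate 2 labelled H3R17H was the only library in which Ldhb held most of the pair, Ldha being 33.7% of it there and 63.0% or more elsewhere.

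In the pyruvate dehydrogenase complex, the X-linked E1 alpha subunit Pdha1 stood higher in the libraries labelled H3R17H. Pdha1 was at 110.6, 103.2 and 79.5 FPKM in WT, 118.5, 218.1 and 164.0 under the H3R17H label, and 94.9, 182.9 and 129.4 under the Carm1-/- label. All libraries labelled H3R17H lay above WT, while within both edited groups the library with Y-linked transcripts was the lowest. Pdha1 differed by 0.74 (SE 0.3, limma adjusted p = 0.32) for H3R17H and 0.43 (SE 0.3, adjusted p = 0.584) for Carm1-/-. With the sex term these were 0.28 and -0.02, and among libraries with Y-linked transcripts 0.29 and -0.03. The E1 beta subunit Pdhb was at 426.1, 378.3 and 405.3 FPKM in WT, 431.5, 437.2 and 452.8 under the H3R17H label, and 380.6, 396.6 and 459.4 under the Carm1-/- label. Its groups did not overlap for H3R17H against WT, but the difference was 0.13 (SE 0.16, adjusted p = 0.746) and -0.01 after quantile normalization.

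Dld, the E3 subunit shared with other dehydrogenases, was at 32.1, 31.2 and 36.1 FPKM in WT, 23.5, 26.8 and 22.4 under the H3R17H label, and 31.3, 18.2 and 30.8 under the Carm1-/- label. The libraries labelled H3R17H were all lower than WT, by -0.44 (SE 0.26, limma adjusted p = 0.469). Dlat, the E2 core subunit, ranged from 15.6 to 21.6 FPKM in WT and stood at 18.8, 3.2 and 8.6 under the Carm1-/- label, a difference of -1.1 (SE 0.49, adjusted p = 0.428), or -1.65 (SE 0.4, adjusted p = 0.0488) without replicate 1. With the sex term it was -0.53 (adjusted p = 0.993), and among libraries with Y-linked transcripts -0.01 (adjusted p = 0.991).

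The Pdk kinases, which switch the complex off, were all low. Pdk2 was at 1.09, 2.37 and 2.16 FPKM in WT, 0.22, a listed 0 and 0.32 under the H3R17H label, and 1.68, 0.81 and 3.22 under the Carm1-/- label. The H3R17H libraries lay below both other groups, by -1.26 (SE 0.39, limma adjusted p = 0.243) against WT. Pdk3 stood at 2.76, 1.75 and 0.94 FPKM in WT. It was 3.43, 8.94 and 2.83 under the Carm1-/- label, without overlap, 1.02 apart (SE 0.46, adjusted p = 0.429). Pdk1 was at most 0.52 FPKM in any library.

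The pentose phosphate genes held the largest single difference of the members, that of Tktl1, and besides it Rpia alone had groups without overlap in any comparison. Tktl1, an X-linked transketolase-like gene, was at 0.39, 0.16 and 1.14 FPKM in WT, 1.85, 0.46 and 0.96 under the H3R17H label, and 5.64, 44.0 and 6.87 under the Carm1-/- label. All 3 libraries labelled Carm1-/-, replicate 1 included, were above all other libraries, and replicate 2 was far above the rest. Tktl1 differed by 3.14 (SE 0.65, limma adjusted p = 0.196) from WT and by 2.72 (SE 0.65, adjusted p = 0.383) from the libraries labelled H3R17H. It passed the filter of 1 FPKM in at least 3 libraries only through the libraries labelled Carm1-/-, the group where it was high. Without replicate 1 labelled Carm1-/- the difference from WT was 3.64 (SE 0.66, adjusted p = 0.0205), and among libraries with Y-linked transcripts 2.14 (adjusted p = 0.35). Oocyte and granulosa markers were also highest in replicate 2 labelled Carm1-/- (22.1 FPKM summed), and their part in the Tktl1 values was not tested.

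Tkt, the main transketolase, was at 54.4, 42.4 and 41.9 FPKM in WT, 48.6, 49.1 and 43.4 under the H3R17H label, and 40.1, 70.2 and 35.7 under the Carm1-/- label. These groups overlapped. Tktl1 made up at most 2.64% of the pair in WT and at most 3.66% under the H3R17H label, and 12.3%, 38.5% and 16.1% under the Carm1-/- label. G6pdx, the X-linked enzyme that commits glucose 6-phosphate to the pathway, ranged from 8.03 to 29.3 FPKM, Pgls, the lactonase after it, from 17.7 to 55.5, and Pgd, the second NADPH-forming enzyme, from 62.1 to 117.5. Taldo1, transaldolase, ranged from 198.8 to 339.9 FPKM and Rpe, the ribulose phosphate epimerase, from 4.79 to 19.0, and both overlapped in every comparison. Rpia, the ribose phosphate isomerase, stood at 2.81, 2.84 and 6.42 FPKM in WT and 1.62, 2.71 and 2.68 under the Carm1-/- label without overlap, -0.54 apart (SE 0.38, adjusted p = 0.6). Summed over the 8 pentose phosphate genes the level was 361.6 to 544.5 FPKM in WT, 472.5 to 567.2 under the H3R17H label and 436.5 to 582.9 under the Carm1-/- label, with overlap.

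**Figure D5:**
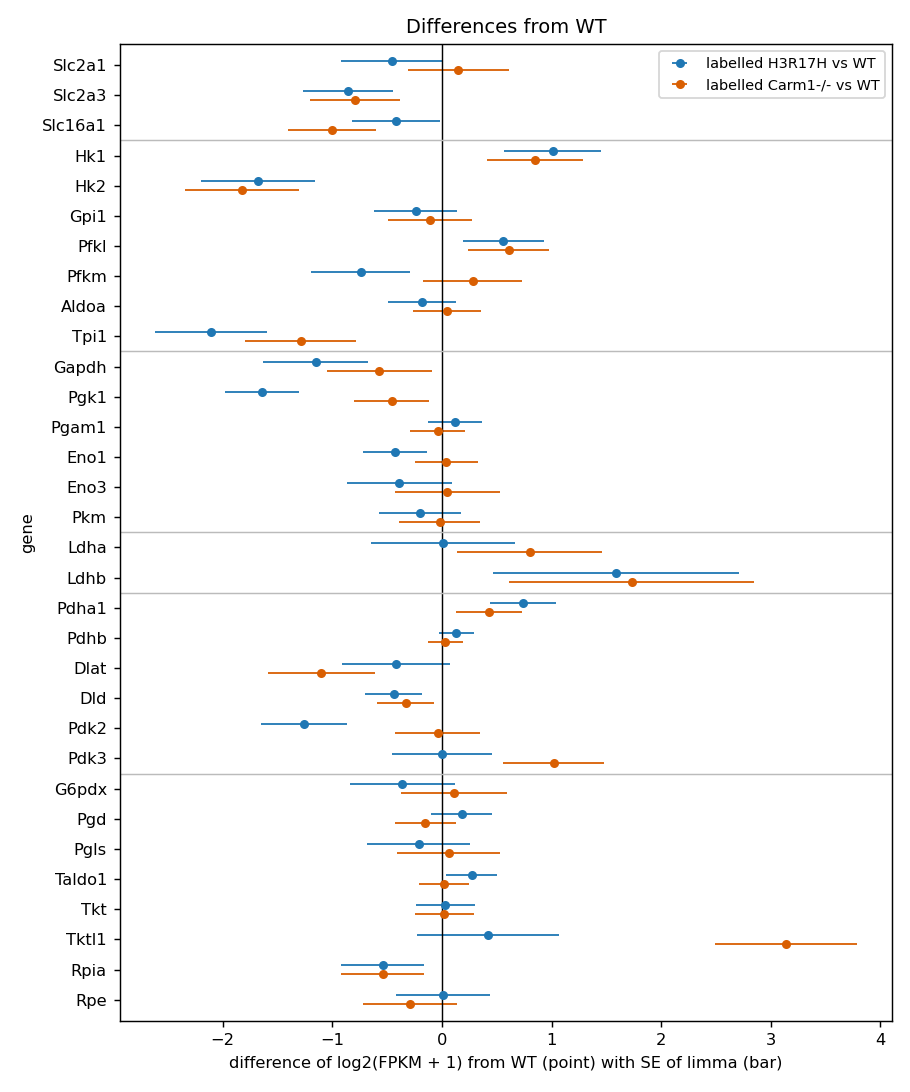
Difference from WT on the log2(FPKM + 1) scale with its standard error for each of the 32 tested members, for the libraries labelled H3R17H and Carm1-/-. Tpi1 lies lowest for H3R17H at -2.11, Hk2 lowest for Carm1-/- at -1.82, and Tktl1 highest for Carm1-/- at 3.14.

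Promoters are shown for Pgk1 and Hk2, which were low together under the H3R17H label, and for Ldhb and Tktl1, which had the largest positive differences. The sequences are the 250 bases before the annotated start, read 5′ to 3′ on the gene's strand, from RefSeq (GRCm38.p6). Capitals mark ACGTG and GCGTG on either strand (CACGT and CACGC on the strand printed), the core letters to which hypoxia-inducible factor, a known activator of glycolytic genes, binds.
Pgk1, chrX:106186850-106187099, plus strand: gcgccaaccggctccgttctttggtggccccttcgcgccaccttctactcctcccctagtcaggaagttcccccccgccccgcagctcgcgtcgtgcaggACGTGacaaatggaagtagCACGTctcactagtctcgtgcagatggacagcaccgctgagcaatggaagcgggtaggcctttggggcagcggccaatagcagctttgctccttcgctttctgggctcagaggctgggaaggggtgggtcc
Hk2, chr6:82774455-82774704, minus strand: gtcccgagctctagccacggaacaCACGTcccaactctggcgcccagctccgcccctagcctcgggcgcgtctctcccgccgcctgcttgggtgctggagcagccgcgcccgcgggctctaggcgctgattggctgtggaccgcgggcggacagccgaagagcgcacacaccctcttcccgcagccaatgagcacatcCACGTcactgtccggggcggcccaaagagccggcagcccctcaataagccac
Ldhb, chr6:142507958-142508207, minus strand: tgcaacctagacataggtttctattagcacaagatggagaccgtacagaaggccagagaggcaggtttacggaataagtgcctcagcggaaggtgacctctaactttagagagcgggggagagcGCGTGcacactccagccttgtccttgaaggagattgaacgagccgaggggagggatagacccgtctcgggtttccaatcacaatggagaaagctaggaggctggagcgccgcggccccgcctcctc
Tktl1, chrX:74177009-74177258, plus strand: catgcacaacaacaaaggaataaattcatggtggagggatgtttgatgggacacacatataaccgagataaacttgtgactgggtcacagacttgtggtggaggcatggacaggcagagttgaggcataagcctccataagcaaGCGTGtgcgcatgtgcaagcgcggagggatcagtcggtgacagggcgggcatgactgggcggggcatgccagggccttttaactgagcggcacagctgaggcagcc

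Pgk1 and Hk2 each held 2 copies of ACGTG and no GCGTG, and Ldhb and Tktl1 each held 1 copy of GCGTG and no ACGTG. These genes were picked by their differences in these data, and Tpi1, which lay lowest for H3R17H, is not shown. A link between motif and direction was not tested. Of the 47 promoters that RefSeq lists for 33 of the members, 74.5% held either motif, against 38.6% of all 32851 promoters of the same length. ACGTG was in 29.8% of the member promoters and 16.6% of all, and GCGTG in 57.4% and 28.2%. The E-box CACGTG, whose letters contain ACGTG, was in 8.51% and 6.02%. Both motifs contain CG, and the 32851 promoters were not matched to the members for CG content or level of expression. A gene with several promoters counted once for each. A match is only a match of letters.

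Pgk1, Pdha1, Pdk3, G6pdx and Tktl1 are X-linked, and Xist, the RNA that silences an X chromosome, stood at 0.19 to 0.43 FPKM in WT, 4.84, 28.2 and 16.6 under the H3R17H label and 0.26, 32.5 and 18.9 under the Carm1-/- label. The 387 tested genes of chromosome X had a median difference of 0.01 for H3R17H and 0.17 for Carm1-/- against WT. The medians of the 5 X-linked members were -0.0 and 0.43. For H3R17H 2 of them were higher in value and 3 lower, beside 47.7% and 52.3% of all tested genes. For Carm1-/- 4 were higher and 1 lower, beside 46.3% and 53.7%. The largest differences among them were the -1.64 of Pgk1 for H3R17H and the 3.14 of Tktl1 for Carm1-/-. Slc2a3, Hk2, Tpi1, Gapdh, Ldhb and Rpia lie on chromosome 6. For H3R17H against WT 5 of these 6 were lower in value, beside 52.3% of all tested genes, and 1 was higher. Their median was -1.0, and 4 were lower without overlap, beside 15.6%. The 508 tested genes of chromosome 6 had medians of -0.11 for H3R17H and -0.08 for Carm1-/- against WT. The 28 other tested genes that start within 500 kb of Tpi1 had medians of -0.21 and -0.14. The part of position in these differences was not tested.

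Of 45 further genes of glucose and pyruvate metabolism 34 were listed and 27 tested, and limma called none in any of the 4 comparisons. For H3R17H against WT 11 were higher in value and 16 lower, beside 47.7% and 52.3% of all tested genes. Their median was -0.22, beside -0.03 for all tested genes. At an unadjusted limma p under 0.05 there were 2 higher and 4 lower, beside 6.41% and 7.75%. Those with the smallest p were Gpd1l, a glycerol 3-phosphate dehydrogenase homolog (2.07, adjusted p = 0.224), Pgm1, a phosphoglucomutase (-1.28, adjusted p = 0.224), and Galm, which readies galactose for use (-1.05, adjusted p = 0.237), none passing. Gpd1l stood at 76.1, 38.2 and 34.2 FPKM in WT, 161.4, 310.2 and 155.7 under the H3R17H label, and 57.1, 251.7 and 244.0 under the Carm1-/- label. Its 5 high libraries were all those labelled edited save replicate 1 labelled Carm1-/-. Without that replicate Gpd1l was called for Carm1-/- against WT, at 2.39 (SE 0.38, limma adjusted p = 0.0155). In that fit 2.5% of all tested genes were called higher and 2.14% lower. Of 9 further pentose phosphate and NADPH genes 7 were tested and none called. For H3R17H against WT 5 were higher in value and 2 lower, beside 47.7% and 52.3% of all tested genes. Those of smallest p in that comparison were Gsr, Idh1 and Rbks. For Carm1-/- against WT 1 was higher without overlap, beside 6.91% of all tested genes. It was Txnrd1, at 14.7, 15.2 and 13.7 FPKM in WT and 19.5, 34.3 and 20.6 under the Carm1-/- label.

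The tricarboxylic acid cycle, which receives the acetyl-CoA, had 18 genes listed and tested and none called. For H3R17H against WT 15 of the 18 were lower in value and 3 higher, beside 52.3% and 47.7% of all tested genes, with a median of -0.48, beside -0.03. At an unadjusted p under 0.05 there were 6 lower and 0 higher, beside 7.75% and 6.41%, and without overlap 9 lower and 0 higher, beside 15.6% and 13.3%. The counts for Carm1-/- against WT were also 15 and 3, beside 53.7% and 46.3%, with a median of -0.37, beside -0.04. By library the median difference of these genes from the WT mean was -0.04, -0.65 and -0.5 in replicates 1, 2 and 3 labelled Carm1-/-. Replicates 2 and 3 are those without Y-linked transcripts. Under the H3R17H label it was -0.64, -0.42 and -0.39. Idh3a, a subunit of the NAD-linked isocitrate dehydrogenase, stood at 153.4, 165.3 and 196.1 FPKM in WT, 63.8, 46.0 and 93.0 under the H3R17H label, and 135.1, 42.7 and 75.4 under the Carm1-/- label. All 6 edited libraries were below WT, and the difference for H3R17H was -1.38 (limma adjusted p = 0.226). Without replicate 1 labelled Carm1-/-, Carm1-/- differed from WT by -1.57 (adjusted p = 0.0329) for Idh3a and -1.43 (adjusted p = 0.0406) for Dlst. In that fit 2.14% of all tested genes were called lower and 2.5% higher. Mdh1, the cytosolic malate dehydrogenase, had WT levels of 111.0 to 137.3 FPKM and edited levels of 56.2 to 99.8, and Sdhd, a succinate dehydrogenase subunit, 219.1 to 225.7 and 79.3 to 193.1, again without overlap.

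Of 22 genes of the hypoxia-inducible factor pathway 20 were tested and none called. In value 11 were higher and 9 lower for each edited label against WT. Of all tested genes 47.7% were higher and 52.3% lower for H3R17H, and 46.3% and 53.7% for Carm1-/-. The pathway medians were 0.11 for H3R17H and 0.13 for Carm1-/-, beside -0.03 and -0.04 for all tested genes. Pathway members therefore stood on both sides. Ndrg1, a stress-responsive gene, was at 51.7, 81.0 and 88.2 FPKM in WT, 8.61, 12.7 and 25.2 under the H3R17H label, and 85.2, 2.04 and 5.63 under the Carm1-/- label, low in the 5 edited libraries other than replicate 1 labelled Carm1-/-. Ddit4, an inhibitor of mTORC1 signalling, was at 5.34, 1.04 and 0.73 FPKM in WT, 11.5 to 30.3 under the H3R17H label, and 3.92 to 35.3 under the Carm1-/- label, above the WT range in those same 5. Without replicate 1 labelled Carm1-/-, Carm1-/- differed from WT by -4.02 for Ndrg1 (limma adjusted p = 0.00748) and 3.09 for Ddit4 (adjusted p = 0.0307). In that fit 2.14% of all tested genes were called lower and 2.5% higher. With all 9 libraries the difference of Ddit4 for H3R17H was 2.62 (SE 0.73, limma adjusted p = 0.226). Egln1, the oxygen sensor that marks the factor for destruction, had a difference of -0.78 (SE 0.28, adjusted p = 0.278) for H3R17H. Adm, which encodes the peptide adrenomedullin, was listed at 0 in all WT libraries and read 0.17 to 5.26 FPKM in the edited ones. Like Tktl1, Adm passed the filter only through the libraries where it was high, here the edited ones, and its levels were low.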

How the data were processed

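Each of the 9 libraries has 1 column of FPKM in the deposited table, per the file headers. Bowtie 0.12.2, mm10 and GRCm38 appear in the submitters' processing notes. The sources used here do not give the quantifier or the annotation. Low values form no steps of whole reads, so depth is unknown and no counting interval is given. Summed FPKM was 521143.4 to 567857.9 per library. The number of libraries, 3 a group, limits the precision.

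Libraries were grouped by title. Values were tested as log2(FPKM + 1) with limma 3.58.1 (R 4.3.3, intensity trend) over all 9 libraries, for the 11850 genes that reached 1 FPKM in 3 or more libraries, with Benjamini-Hochberg adjustment and a threshold of 0.05. The fit was tested on simulated data. A two-sided exact permutation of 3 against 3 cannot go below 0.1. Tables and figures were made with pandas 2.3.3, scipy 1.17.1, numpy 2.4.6 and matplotlib 3.10.9 under Python 3.11.15. Pseudogene copies were found with blastn 2.17.0 against GENCODE M21 transcripts. Promoters came from RefSeq.

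Every listed member is named. Values per library are given for members called in any comparison, members of mean at least 5 FPKM without overlap between a pair of groups, and the paralog of highest WT mean at each step. Hk1, Ldhb, Pdk2, Pdk3, Rpia and Dlat are shown in addition, chosen after their values were seen, as were Ndrg1, Dlst and Txnrd1. Of each further list the 3 of smallest p are named. The members, lists and tests were chosen with earlier results of these data known. Alternatives changed the pseudocount, filter, scaling, trend, weights, libraries in the fit, a replicate block and a sex term.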

Additional observations from a re-analysis of the deposited data

How the results depend on the processing

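The alternatives were followed for 39 differences, namely every member difference printed above and the others with an unadjusted p under 0.05 or groups without overlap at a mean of at least 5 FPKM. Of their 841 values, 811 kept direction and side of the threshold, 19 passed it and 11 reversed. For Carm1-/- against WT, Slc2a3 (0.2), Tpi1 (0.07), Gapdh (0.63), Ldhb (-1.24) and Pdha1 (-0.03) reversed with only libraries with Y-linked transcripts, and Ldhb (-0.5) and Pdha1 (-0.02) with the sex term. For H3R17H against WT, Ldhb (-0.63) reversed with the sex term and Pdhb (-0.01) after quantile normalization. Over both edited groups Ldhb reversed to -0.57 with the sex term and with only libraries with Y-linked transcripts. The cause was not tested. With array quality weights 2 members were called for H3R17H against WT and 4 for both edited groups against WT. With only the groups compared, 1 was called for H3R17H against WT. Leaving out each library in turn gave 0 to 1 called members for H3R17H against WT, 0 to 6 for Carm1-/- against WT and 0 to 5 for both edited groups against WT (Hk2, Slc2a3, Tpi1, Gapdh and Ldhb), in each case above 0 only without replicate 1 labelled Carm1-/-. With only libraries with Y-linked transcripts the member median was 0.29 for Carm1-/- against WT and 0.63 for Carm1-/- against H3R17H. Leaving out each library in turn, the Hk1 share differed between edited and WT libraries by at least 11.8 percentage points and the Tktl1 share by 5.8 to 13.3. These 2 analyses were added after seeing the data.

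The replicate block called 0 members in all 4 comparisons and left the medians at -0.22, 0.02, 0.13 and -0.13. Whether the replicate numbers pair the libraries cannot be settled from so few pairs. Deviations of the 9 same-number pairs correlated at -0.05 to 0.18, and a library matched its own number best in 4 of 18 choices. No member was called with the other pseudocounts, filters or scalings, without the trend, with the sex term, or with only libraries with Y-linked transcripts. The fit with only the groups compared was not run for both edited groups, which use every library.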
